A study of Mus musculus with 20 samples.

Results

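The expression of 10 genes for proteins that goblet cells of the colon make, secrete or use for secretion was described in 20 mice. The genes were Fcgbp, Clca1, Zg16, Tff3, Agr2, Spdef, Retnlb, Spink4, Klk1 and Clca4b, taken by name out of 32991 genes in the deposited tables. All 10 were found, and all 10 passed the filter on low values in every comparison (0.5 FPKM or more in 5 or more of the compared mice). FPKM is the number of sequenced fragments per kilobase of transcript, scaled to the mapped fragments of the library, so levels can be set side by side between genes.

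The study asked whether Pien Tze Huang (PZH), a formula of traditional Chinese medicine, changes colitis-associated colorectal cancer in mice. Male C57BL/6 mice fell into 4 groups of 5, with 1 library of colon RNA per mouse; their ages were not given in the sources used here. The Control group received neither chemical, the PZH group received only PZH at 250 mg/kg by gavage daily, and treatment lasted 91 days. The Model group (AOM/DSS) received 1 injection of the carcinogen azoxymethane (AOM) at 12.5 mg/kg and, 7 days later, 4 cycles of 2% dextran sulfate sodium (DSS) in the drinking water for 5 days followed by 2 weeks of water. The Model + PZH group received both the chemicals and PZH, and mice without PZH received water by gavage. Whole colon RNA holds all cell types of the tissue, so fewer goblet cells and less RNA per goblet cell cannot be told apart in any of these values.

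Goblet cells are the mucus-secreting cells of the intestinal epithelium. Their main product is the mucin Muc2, which unfolds after secretion into the gel that keeps bacteria away from the colon surface. Other secreted proteins are stored and released with it: Fcgbp is a large mucus protein, Clca1 a metalloprotease that processes the mucus, Zg16 a lectin that binds Gram-positive bacteria, and Tff3 a trefoil peptide known for epithelial repair. Agr2 is a protein disulfide isomerase of the endoplasmic reticulum needed to make Muc2, and Spdef is a transcription factor of goblet cell maturation. Retnlb (resistin-like beta) is an antibacterial protein that goblet cells make on contact with bacteria or type 2 cytokines, Spink4 belongs to the Kazal-type protease inhibitors, Klk1 is tissue kallikrein, which releases kinins, and Clca4b belongs to the same gene family as Clca1. On GRCm38, the build of the annotation used, Clca4b (chr3:144910921-144932529) and Clca1 (chr3:145003817-145032776) lie close together on the minus strand of chromosome 3. Chromosome 7 holds Fcgbp (chr7:28071236-28120862), Klk1 (chr7:44225360-44229618) and Zg16 (chr7:127050156-127087328), and chromosome 17 holds Spdef (chr17:27714352-27728955) and Tff3 (chr17:31125306-31129646). Spink4 (chr4:40920052-40931395), Agr2 (chr12:35992907-36004087) and Retnlb (chr16:48816856-48818892) lie elsewhere, and the values cover whole genes with their exons and untranslated regions.

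The promoters of Clca4b and Klk1 are shown because Clca4b had the largest difference of the 10 genes and Klk1 was 1 of the 2 genes that passed the test as lower in the Model mice once 2 Control mice were left out. RefSeq promoters (GRCm38.p6) matched 5 of the 10 genes. The 250 bases before the transcription start are printed 5′ to 3′ on the strand of the gene, chr3:144932530-144932779 on the minus strand for Clca4b and chr7:44225110-44225359 on the plus strand for Klk1. Capitals mark matches to the motifs searched.
Clca4b: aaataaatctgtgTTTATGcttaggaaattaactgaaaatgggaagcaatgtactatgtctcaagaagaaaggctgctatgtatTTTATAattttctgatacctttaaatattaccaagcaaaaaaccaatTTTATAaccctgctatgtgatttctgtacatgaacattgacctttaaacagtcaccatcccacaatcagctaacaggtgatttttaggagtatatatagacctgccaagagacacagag
Klk1: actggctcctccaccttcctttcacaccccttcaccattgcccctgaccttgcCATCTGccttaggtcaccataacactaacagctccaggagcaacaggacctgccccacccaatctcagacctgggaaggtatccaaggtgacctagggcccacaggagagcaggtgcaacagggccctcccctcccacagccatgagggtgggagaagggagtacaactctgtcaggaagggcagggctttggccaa
The motifs, searched on both strands, were the E-boxes CAGCTG and CAGATG, the ETS core CCGGAT, the FOXA core TGTTTAC, the CDX core TTTATG and the TATA box TATAAA. Clca4b held the CDX core 237 bases before the start and the TATA box letters on the other strand at 166 and 119 bases, and Klk1 held CAGATG on the other strand at 197 bases. Agr2 also held the CDX core, on the other strand at 47 bases, and Spdef held it at 191 bases. Fcgbp held CAGCTG at 208 bases. No matches overlapped in the Clca4b promoter. Among 32851 promoters of this length, 10.76% held the CDX core, 12.37% the TATA box letters, 14.44% CAGATG, 4.94% CCGGAT and 3.17% TGTTTAC, and 4271 held CAGCTG. A match describes letters and is not a site of binding. Only the exact letters were searched, so variants such as tatatata near the end of the Clca4b sequence carry no mark.

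Depth, read from the steps of low FPKM values, was 15.31 to 19.42 M fragments per mouse, with group medians between 16.38 and 17.06. All 20 libraries held the intestinal genes Vil1 (156.9 to 273.9 FPKM) and Cdx1 (109.7 to 248.7 FPKM), although the label on RNA extraction speaks of abdominal aorta. Control mice 17 and 50 stood apart from the other Control mice: Krt13, a keratin of squamous epithelium, was at 125.0 and 126.2 FPKM in them against 0.26 to 0.53 in the other 3, and Krt5 was at 33.9 and 20.9 against 0 to 0.094. The summed level of 8 squamous epithelium markers was 445.8 and 345.1 FPKM in these mice and 0.82 to 67.7 FPKM in the other 18. Their smooth muscle myosin Myh11 was at 231.0 and 431.1 FPKM, above the 106.3 to 166.5 FPKM of the other Control mice. Of the 10 genes, mouse 17 was among the 2 lowest Control mice in 9, and mouse 50 in 8. Results against Control were therefore also computed without this pair, a choice made after the values were seen. Model + PZH mouse 35 stood apart as well: its crypt base stem cell markers summed to 164.0 FPKM against 30.6 to 48.7 in the other 4 mice of its group, its leukocyte markers to 752.3 against 301.9 to 446.8 FPKM, and its absorptive colonocyte markers to 1580 against 2656 to 3609 FPKM. In the Model mice these sums were 98.9 to 157.0, 391.3 to 886.6 and 1348 to 2237 FPKM, so mouse 35 lay within or beside the Model ranges. Mouse 35 was the lowest Model + PZH mouse in 5 of the 10 genes.

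**Figure D1:**
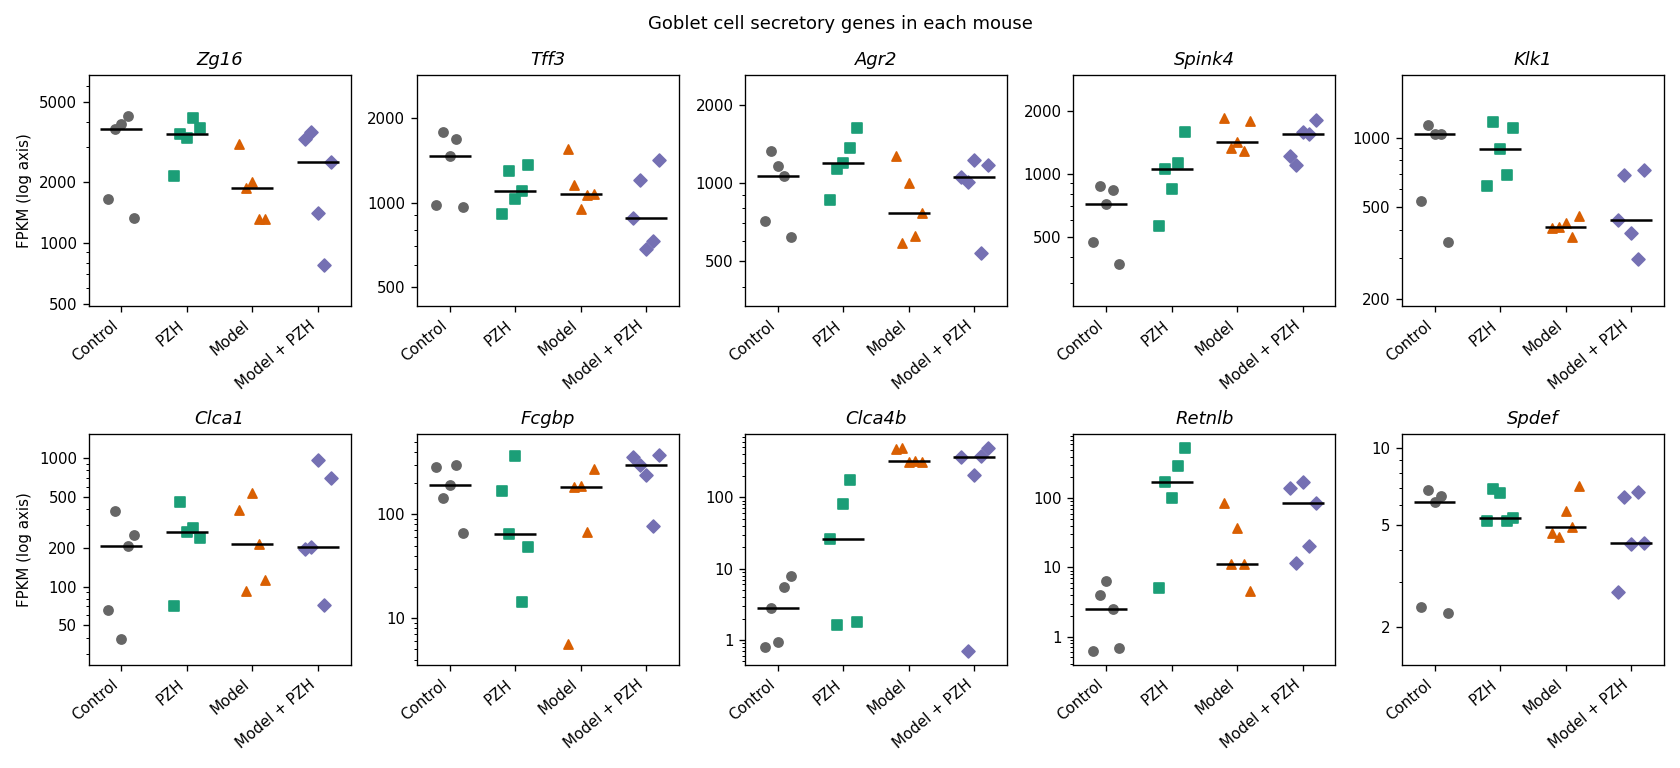
Level of the 10 goblet cell secretory genes in each of the 20 mice, by group, in FPKM on a log axis; each point is 1 mouse and the horizontal line is the median of 5 mice. The 5 Model mice lie above all 5 Control mice in the panels of Spink4 and Clca4b, while the groups overlap in the other panels for that pair of groups.

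Zg16, Tff3, Agr2, Klk1 and Spink4 were the most abundant of the 10 genes in the Control mice, with means of 2979 ± 1376, 1376 ± 383.5, 978.0 ± 303.8, 821.3 ± 353.4 and 653.1 ± 220.6 FPKM (SD, n = 5). Fcgbp and Clca1 followed with 196.4 ± 97.0 and 191.0 ± 143.5 FPKM. The transcription factor Spdef (4.84 ± 2.29 FPKM), Clca4b (3.60 ± 3.11 FPKM) and Retnlb (2.84 ± 2.44 FPKM) were low. In this order each gene's range over mice overlapped with that of the next, except between Spink4 and Fcgbp and between Clca1 and Spdef. Summed over the 10 genes, the median mouse held 1.78% of all gene FPKM in Control, 1.95% in PZH, 1.42% in Model and 1.77% in Model + PZH. The summed levels ranged from 3968 to 9424 FPKM among Control mice and from 5281 to 9177 FPKM among Model mice, so the groups overlapped widely.

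The first comparison was between the Model and Control groups. In the Model mice, 3 of the secretory genes rose, Clca4b, Retnlb and Spink4, and none of the 10 fell by the same test (limma on log2(FPKM + 1), adjusted P under 0.05 over 15812 genes). This count of 3 of 10 stands beside 23.6% of all genes called in either direction, 16.4% higher and 7.23% lower. Their median log2 fold change was 0.01, against 0.09 for all genes tested.

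Clca4b was at 0.80, 2.77, 0.92, 5.50 and 8.01 FPKM in Control mice 17, 37, 41, 48 and 50, and at 482.6, 486.7, 309.6, 323.2 and 314.0 FPKM in Model mice 23, 30, 33, 44 and 52. Every Model mouse was far above every Control mouse. The mean rose from 3.60 ± 3.11 to 383.2 ± 92.7 FPKM (SD, n = 5), with a log2 fold change of 6.64 (SE 0.42, adjusted P = 4.26e-06), and without Control mice 17 and 50 it was 6.70 (adjusted P = 3.76e-05). Of the 50-base stretches of the Clca4b transcript, 24.8% also occur in other genes, mostly in its neighbour Clca4a. Clca4a was at 72.0 FPKM on average in Model and 101.6 FPKM in Control mice (log2 fold change −0.48, SE 0.35, adjusted P = 0.356), so the values of the 2 relatives did not run together.

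Spink4 was at 473.3, 868.7, 719.6, 832.3 and 371.4 FPKM in the Control mice, in the same order as above, and at 1856, 1329, 1414, 1283 and 1778 FPKM in the Model mice. The 5 Model mice were all above the highest Control mouse. Its log2 fold change was 1.29 (SE 0.24, adjusted P = 0.0037), and it was 0.91 (adjusted P = 0.0077) without Control mice 17 and 50. Spink4 and Clca4b were the 2 of 10 genes whose groups did not overlap, against 18.4% of all genes tested that did not overlap in either direction.

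Retnlb was at 0.62, 3.94, 6.44, 2.51 and 0.68 FPKM in the Control mice and at 85.5, 11.0, 37.8, 11.2 and 4.51 FPKM in the Model mice. Model mice 23, 30, 33 and 44 were above all Control mice, and mouse 52 was not. The log2 fold change was 2.59 (SE 0.72, adjusted P = 0.0246). This call was lost without Control mice 17 and 50 (1.94, adjusted P = 0.136) and without any 1 of Control mouse 17, Control mouse 50 or Model mouse 33 (2.34 to 2.35, adjusted P = 0.0568 to 0.0582). Only about 7 fragments lay behind the lowest Retnlb value.

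**Figure D2:**
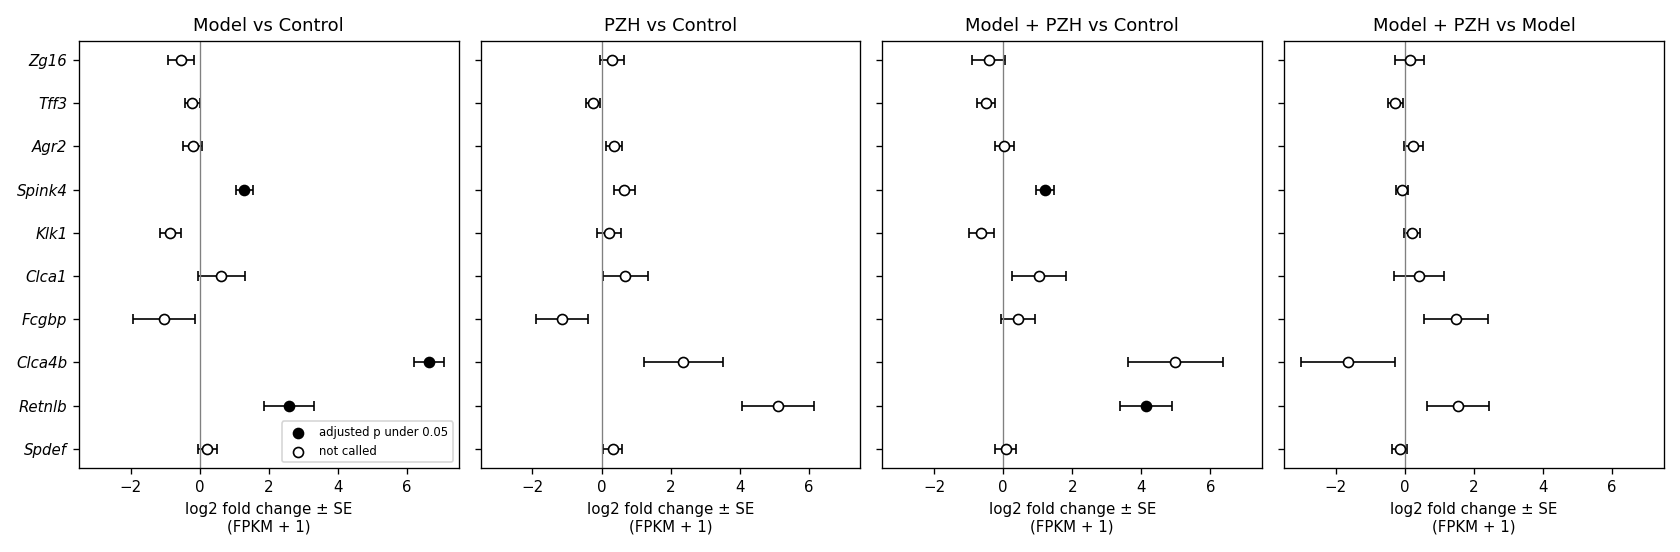
Log2 fold change of each gene on the log2(FPKM + 1) scale with its standard error (bars), in 4 comparisons of 5 against 5 mice; filled points passed the test (adjusted P under 0.05). Clca4b stands at 6.64 in Model vs Control and Retnlb at 5.11 in PZH vs Control, and no point is filled in Model + PZH vs Model or in PZH vs Control.

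Klk1 and Zg16 were lower on average in the Model mice but did not pass the test. Klk1 was at 531.5, 1141, 1036, 1044 and 354.6 FPKM in the Control mice and at 406.0, 410.1, 425.6, 372.4 and 458.1 FPKM in the Model mice. The Model mice lay in a narrow band (CV 7.52%), below 4 of the Control mice and above Control mouse 50. The log2 fold change was −0.85 (SE 0.30, adjusted P = 0.0631). Without Control mice 17 and 50 it was −1.37 and Klk1 passed the test (adjusted P = 0.00019). The main Klk1 transcript shares 28.4% of its 50-base stretches with other kallikrein genes, mostly Klk1b5, which stayed at or under 0.84 FPKM in all mice.

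Zg16 was at 1662, 3699, 3926, 4283 and 1327 FPKM in the Control mice and at 3123, 1869, 2001, 1313 and 1317 FPKM in the Model mice. The groups overlapped through Control mice 17 and 50. With all 10 mice the log2 fold change was −0.55 (SE 0.38, adjusted P = 0.326), and without that pair it was −1.12 and passed the test (adjusted P = 0.029). So 4 genes were called without the pair, Clca4b and Spink4 higher and Klk1 and Zg16 lower, with 17.8% of all genes called in that fit. The Control mice high in squamous markers were the lowest Control mice in both genes. The 3 Control mice that remain held squamous sums of 0.96 to 2.18 FPKM, against 13.7 to 38.5 FPKM in the 5 Model mice, and without the pair 3 of 4 squamous markers tested were called higher in Model. The part of squamous tissue in either fit was not tested.

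**Figure D3:**
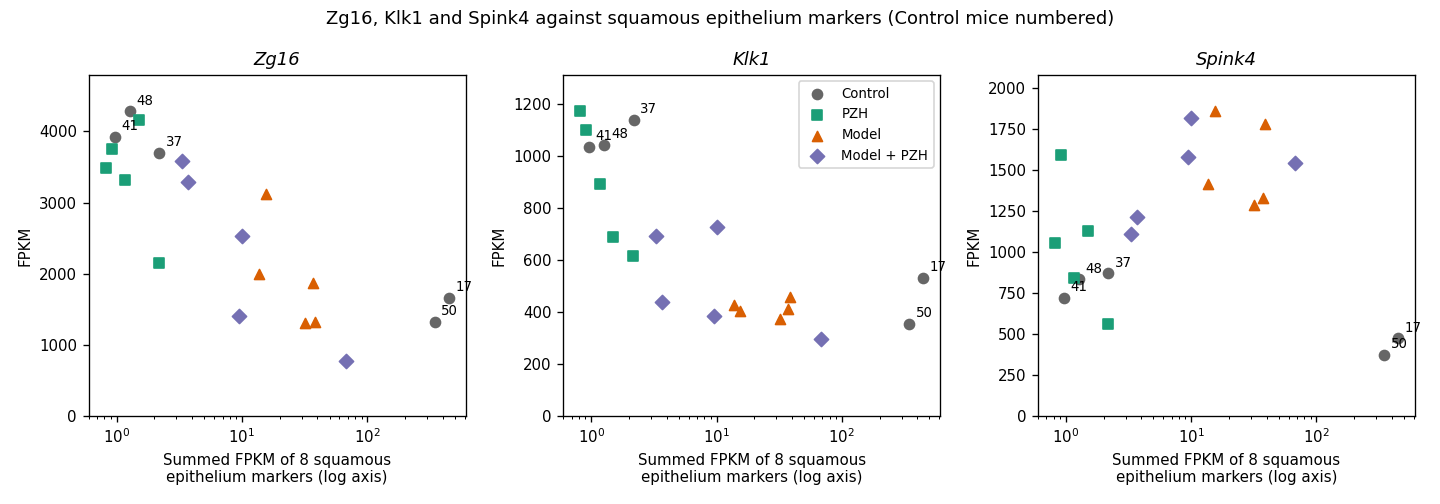
Level of Zg16, Klk1 and Spink4 in FPKM against the summed FPKM of 8 squamous epithelium markers (log axis) in 20 mice, with Control mice numbered. Control mice 17 and 50 lie at 445.8 and 345.1 FPKM of squamous markers and below the other Control mice in all 3 panels.

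The other 5 genes did not pass the test in Model vs Control. Tff3 (1161 ± 231.6 against 1376 ± 383.5 FPKM) and Agr2 (849.0 ± 284.5 against 978.0 ± 303.8 FPKM) had log2 fold changes of −0.22 and −0.21 with SE of 0.21 and 0.27. Spdef was at 5.38 ± 1.07 FPKM in Model and 4.84 ± 2.29 FPKM in Control mice (0.22, SE 0.28). Clca1 ranged from 92.7 to 534.1 FPKM in Model and from 39.1 to 389.3 FPKM in Control mice, and its SE was 0.68. Its log2 fold change of 0.63 went from 0.17 without Control mouse 41 to 0.99 without Control mouse 37. Adjusted P was between 0.453 and 0.631 for these 4 genes and Fcgbp. Without Control mice 17 and 50 the log2 fold changes of Tff3, Agr2, Spdef and Clca1 were −0.52, −0.54, −0.25 and 0.55, and adjusted P was 0.0776 to 0.688.

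Fcgbp varied widely between mice. It was at 282.2, 144.5, 189.3, 299.7 and 66.5 FPKM in the Control mice, at 169.2, 65.0, 360.0, 14.3 and 47.9 FPKM in PZH mice 8, 14, 27, 46 and 53, at 5.64, 184.4, 185.6, 67.6 and 272.5 FPKM in the Model mice, and at 353.3, 294.6, 237.6, 77.2 and 373.2 FPKM in Model + PZH mice 2, 13, 15, 35 and 36. All 4 groups overlapped. The log2 fold change in Model vs Control was −1.04 (SE 0.91, adjusted P = 0.453). It rested on Model mouse 23, the lowest of all, and was −0.12 without that mouse and −1.26 without Control mice 17 and 50. The gene value was carried by a retained-intron transcript of 1123 bases (45.1%) and a protein-coding transcript of 7928 bases (34.9%), while a second coding transcript of almost the same length was listed at 0 in 17 mice. The division between transcripts was the program's estimate, and the sum over the gene may miss fragments given to transcripts without a gene name.

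Genes that act with the secretory genes were taken from lists. Muc2 was at 876.9 FPKM in Model and 482.3 FPKM in Control mice on average (log2 fold change 1.07, SE 0.36, adjusted P = 0.0513). It was lowest in Control mice 17 and 50 (252.4 and 233.8 FPKM), and without them the value was 0.56 (adjusted P = 0.235). Atoh1, the factor that sets secretory fate, was at 19.2 and 24.4 FPKM (−0.24, adjusted P = 0.57), and without that pair it passed the test as lower (−0.68, adjusted P = 0.0256). Of 11 goblet cell transcription factors, 2 rose (Xbp1, a factor of the unfolded protein response, from 60.7 to 83.0 FPKM, and Bhlha15) and 1 fell (Klf4, from 241.4 to 98.6 FPKM, log2 fold change −1.32). Of 25 enzymes of mucin O-glycosylation tested, 5 rose and 1 fell. St3gal1, a sialyltransferase, rose from 2.28 to 6.55 FPKM, Galnt1 and Galnt3, which start O-glycans, from 25.7 to 51.2 and from 15.5 to 27.7 FPKM, and Fut4, a fucosyltransferase, fell from 37.3 to 23.7 FPKM. The list medians were 0.45 for the factors and 0.14 for the enzymes, against 0.09 for all genes. Beside 23.6% of all genes called, 3 of 11 and 6 of 25 are shares near the background, and nothing particular to these lists follows from them. Without Control mice 17 and 50 the counts were 2 risen and 4 fallen factors and 6 risen and 3 fallen enzymes.

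Of 27 other goblet cell and mucus genes tested, 4 rose and 5 fell, with a median of −0.07, beside 16.4% of all genes called higher and 7.23% called lower. The antimicrobial ribonuclease Ang4, also made by Paneth cells, rose from 12.4 to 160.8 FPKM (log2 fold change 4.94, SE 0.82, adjusted P = 0.00189), and the membrane mucin Muc1 from 3.18 to 14.3 FPKM. The transglutaminase Tgm3, which cross-links mucus, fell from 393.2 to 62.1 FPKM (−2.70, SE 0.24, adjusted P = 3.52e-05), and the peptide guanylin (Guca2a) from 985.7 to 276.9 FPKM. Of 8 tested relatives and neighbours of the 10 genes, 2 rose and 1 fell, too few genes to set apart from the 23.6% of all genes. Retnlg, a resistin-like gene of neutrophils, rose from 0.30 to 24.9 FPKM, Clca3b from 81.5 to 232.6 FPKM, and Retnla, a resistin-like gene of macrophages, fell from 8.64 to 0.56 FPKM. Thus Retnla ran opposite to Retnlb and Retnlg.

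Among 7 tested cytokines that act on goblet cells and their receptors, 3 rose and 1 fell in the Model mice, a count of 4 of 7 on few genes beside the same 23.6%. Tnf rose from 1.63 to 8.55 FPKM, Il33 from 3.21 to 12.5 FPKM and Il4ra, the receptor chain for IL-4 and IL-13, from 8.30 to 29.6 FPKM (log2 fold change 1.72, SE 0.12, adjusted P = 7.29e-06). Il18 fell from 67.0 to 34.3 FPKM. Il13, Il4 and Il22 themselves were under the filter, with means of 0.048, 0.55 and 0.35 FPKM in the Model mice. Other scalings shifted log2 FPKM between these 2 groups by −0.19 to 0.28 on average, before the added 1. This is less than the change of any list gene named here as risen or fallen. A scaling can also widen the spread between mice, and the calls of the list genes under these scalings were not examined. Each of these named list genes also passed the test, in the same direction, without Control mice 17 and 50.

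Markers of many other cells differed between the same groups. Each set is small, and its count stands beside 23.6% of all genes called, 16.4% higher and 7.23% lower. All 7 Paneth-type markers tested rose (summed level 6.87 to 55.2 FPKM in Control and 1549 to 5672 FPKM in Model mice), and so did all 6 tested crypt base stem cell markers and 4 of 8 leukocyte markers (170.0 to 377.1 against 391.3 to 886.6 FPKM). All 6 smooth muscle markers fell (2244 to 5172 against 996.1 to 1734 FPKM), and 5 of 10 markers of absorptive colonocytes fell (3875 to 6267 against 1348 to 2237 FPKM). Tuft cell markers summed to 5.53 to 12.7 FPKM in Control and 14.7 to 29.9 FPKM in Model mice (3 of 6 tested rose), and 3 of 9 pan-epithelial markers fell. Markers of distal colon position summed to 193.7 to 274.7 against 133.5 to 189.4 FPKM, without overlap, and 1 of 4 tested fell. None of 9 enteroendocrine and none of 6 squamous markers tested was called. Of 6 proliferation markers 1 rose, and of 6 fibroblast markers 2 rose and 1 fell. All of these sums include Control mice 17 and 50, whose smooth muscle sums were 2829 and 5172 FPKM. Without the pair 4 of 6 smooth muscle and 4 of 9 enteroendocrine markers fell, and 3 of 4 squamous markers tested rose. The part of these cells and of position along the colon in the results on the secretory genes was not tested. Set against 8 epithelial markers, the medians of Clca4b and Spink4 were 2.48 and 625.0 in Control and 430.0 and 1710 in Model mice (FPKM per unit of the mean epithelial level), again without overlap between the groups. These 8 markers were chosen after seeing the data; with the planned scaling, which also holds Krt8, Spink4 missed the threshold (1.10, adjusted P = 0.371).

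The PZH group was compared with Control to see what PZH did without AOM/DSS. None of the 10 genes was called (limma, adjusted P under 0.05), and among all genes 0.00645% were. At an unadjusted P under 0.05 it was 1 of the 10 genes, Retnlb, against 8.84% of all genes.

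Retnlb was at 5.07, 170.8, 102.2, 293.0 and 538.4 FPKM in PZH mice 8, 14, 27, 46 and 53. All of these mice but mouse 8 were at 102.2 FPKM or more, while mouse 8 lay within the Control range of 0.62 to 6.44 FPKM. The mean was 221.9 ± 205.6 against 2.84 ± 2.44 FPKM (SD, n = 5), with a log2 fold change of 5.11 (SE 1.04, unadjusted P = 0.000496, adjusted P = 0.378). It was the only one of the 10 with a fold change over 2 and an unadjusted P under 0.05, a rule met by 0.690% of all genes. Without PZH mouse 8 the log2 fold change was 6.16 and the gene passed the test (adjusted P = 0.00699), and without Control mice 17 and 50 it was 4.46 (adjusted P = 0.612). PZH mouse 8 was also the lowest PZH mouse in 7 of the 10 genes.

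Ang4 had high and low values in many of the same mice as Retnlb. Its levels were 4.63, 1159, 141.6, 334.6 and 2095 FPKM in the PZH mice in the order above, and 0.52, 3.61, 52.8, 4.11 and 0.74 FPKM in the Control mice. As for Retnlb, mouse 8 was the lowest PZH mouse and mouse 53 the highest. Its log2 fold change was 5.51 (SE 1.52, unadjusted P = 0.00419, adjusted P = 0.437). In the Model group the order differed, with the lowest Retnlb and the highest Ang4 both in mouse 52.

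Clca4b was at 25.9, 1.64, 80.7, 175.8 and 1.80 FPKM in the PZH mice. Mice 8, 27 and 46 were above all Control mice and mice 14 and 53 were within their range, so the group was split (log2 fold change 2.38, SE 1.15, adjusted P = 0.574). The 2 mice low in Clca4b, 14 and 53, were the 2 highest in Ang4. Spink4 was at 1034 ± 380.6 FPKM against 653.1 ± 220.6 FPKM in Control (0.66, SE 0.31, adjusted P = 0.573). The remaining 7 genes had log2 fold changes from −1.14 (Fcgbp, SE 0.76) to 0.69 (Clca1, SE 0.66). The Fcgbp value was −0.55 without PZH mouse 46, and that of Clca1 was 0.24 without Control mouse 41. Without Control mice 17 and 50, Zg16, Spdef and Klk1 changed sign, to −0.27, −0.14 and −0.31. None of the 5 gene lists above had a called member in this comparison. Smooth muscle markers summed to 1039 to 2412 FPKM in PZH mice, and none of the 6 was called.

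The effect of PZH on mice given AOM/DSS was the main question of the study. None of the 10 secretory genes was called in Model + PZH vs Model (limma), against 0.00629% of all genes, and 0 of 10 had an unadjusted P under 0.05, against 11.7% of all genes. No gene had a fold change over 2 with an unadjusted P under 0.05, against 2.40% of all genes. The median log2 fold change of the 10 genes was 0.18, and that of all genes −0.04.

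Clca4b was at 367.4, 0.71, 206.2, 385.4 and 488.9 FPKM in Model + PZH mice 2, 13, 15, 35 and 36. Mice 2, 15, 35 and 36 were far above every Control mouse, and mouse 13 was below them all. That mouse made the log2 fold change −1.65 (SE 1.35, adjusted P = 0.648), and without it the value was −0.12. Mouse 13 was the lowest of its group in 3 of the 10 genes, Spink4 (1106 FPKM) among them, and the highest in 1, Zg16 (3579 FPKM). About 37 fragments lay behind its Clca4b value. The crypt base stem cell and leukocyte sums of mouse 13, 30.6 and 373.0 FPKM, lay within the Control ranges of 26.3 to 36.2 and 170.0 to 377.1. Its absorptive colonocyte sum of 3542 FPKM lay below the Control range of 3875 to 6267. Its Paneth-type sum of 123.2 FPKM lay above the Control range of 6.87 to 55.2. All of these sums were outside the Model ranges, and their relation to its Clca4b value was not tested.

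Retnlb was at 141.8, 11.5, 174.4, 20.1 and 85.8 FPKM in the Model + PZH mice, 3 of them above every Model mouse. Of these 3, mouse 36 (85.83 FPKM) barely exceeded Model mouse 23 (85.53 FPKM). The difference was within the spread between mice (log2 fold change 1.54, SE 0.90, adjusted P = 0.524). Spink4 was at 1451 ± 287.4 FPKM, against 1532 ± 265.6 FPKM in Model (−0.09, SE 0.17, adjusted P = 0.88), the smallest SE of the 10 genes. Klk1 was at 508.7 ± 191.4 against 414.4 ± 31.2 FPKM (0.21, SE 0.23), Zg16 at 2316 ± 1203 against 1925 ± 739.5 FPKM (0.14, SE 0.42) and Fcgbp at 267.2 ± 118.7 against 143.2 ± 105.9 FPKM (1.48, SE 0.92). Without Model mouse 23 the Fcgbp value was 0.56. Tff3, Agr2 and Spdef had log2 fold changes of −0.28, 0.24 and −0.15. Clca1 reached 968.5 and 701.3 FPKM in Model + PZH mice 15 and 36 and was at 72.3 to 203.4 FPKM in the others. Without Model + PZH mouse 35, again none of the 10 genes was called, and the log2 fold changes of Zg16, Clca1 and Agr2 were 0.48, 0.91 and 0.45.

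Among related genes, Muc2 averaged 1347 FPKM in Model + PZH and 876.9 FPKM in Model mice (0.44, adjusted P = 0.666), and none of the 5 lists had a called member. The Paneth-type sum ranged from 123.2 to 4465 FPKM in Model + PZH mice, with a median of 213.1 against 2938 FPKM in Model, and none of its 7 markers was called. Leukocyte markers summed to 301.9 to 752.3 FPKM, overlapping with the Model mice.

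Model + PZH mice were also compared with Control, which is the same Control group as in the first 2 comparisons. Retnlb (log2 fold change 4.13, SE 0.75, adjusted P = 0.0245) and Spink4 (1.20, SE 0.26, adjusted P = 0.0379) rose, against 2.42% of all genes called and 1.55% called higher. These were also the 2 genes with every Model + PZH mouse above every Control mouse, against 4.18% of all genes. Neither passed the test without Control mice 17 and 50 (3.48 and 0.83, adjusted P = 0.131 and 0.132). Both calls were also lost without any 1 of Control mice 17, 48 and 50 and Model + PZH mice 2 and 15, and that of Spink4 without Control mouse 41 or Model + PZH mouse 35 or 36 as well. In these fits the log2 fold change was 3.72 to 4.16 for Retnlb and 1.02 to 1.31 for Spink4. Clca4b missed the threshold (4.99, SE 1.38, adjusted P = 0.0812), and passed it without mouse 13 (6.52, adjusted P = 0.000529). Without Control mice 17 and 50 it was 5.05 (adjusted P = 0.225).

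Against the PZH group, none of the 10 genes was called in Model + PZH mice (limma), with 2.42% of all genes called. At an unadjusted P under 0.05 only Klk1 differed, against 20.9% of all genes, at 508.7 ± 191.4 and 895.3 ± 243.9 FPKM (−0.85, SE 0.28, unadjusted P = 0.0105, adjusted P = 0.118). The interaction asks whether PZH acted differently with and without AOM/DSS. It was called for none of the 10 genes over 20 mice, with 0.0118% of all genes called, and Retnlb (−3.57, SE 1.47, adjusted P = 0.422) and Clca4b (−4.02, SE 1.88, adjusted P = 0.478) were the 2 with an unadjusted P under 0.05, against 10.3% of all genes. A difference in the PZH response of Retnlb between the 2 settings is therefore not shown.

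**Figure D4:**
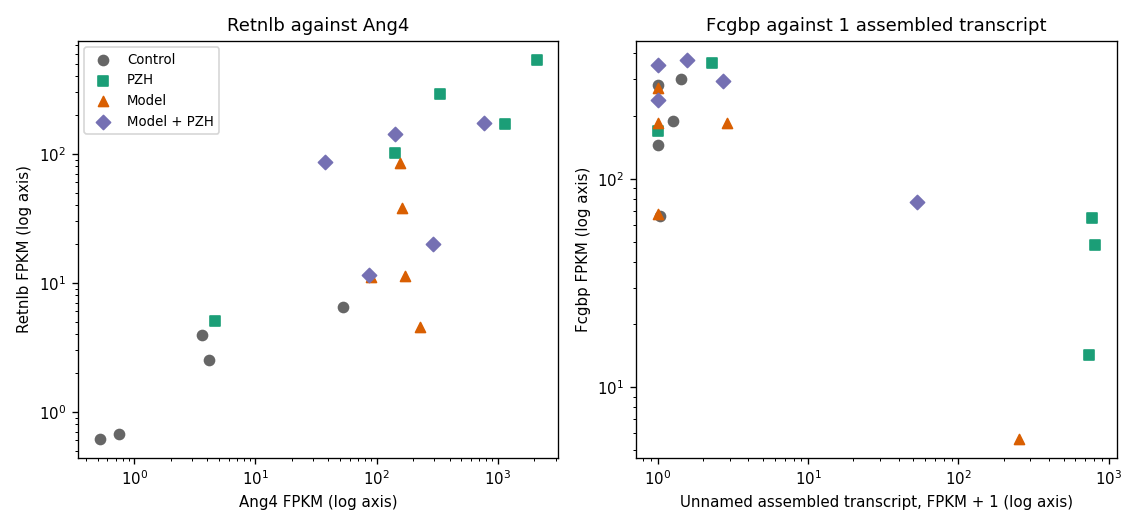
Left, Retnlb against Ang4 in FPKM in 20 mice on log axes; the lowest PZH mouse lies at 5.07 and 4.63 FPKM, near the Control mice, and the other 4 lie at 102.2 FPKM of Retnlb or more. Right, Fcgbp against an assembled transcript without a gene name (FPKM + 1, log axes), which is at 740.3 to 806.5 FPKM in 3 PZH mice whose Fcgbp is at 14.3 to 65.0 FPKM.

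Ratios to Muc2 within a mouse described the make-up of the secretory genes. The median ratio of Zg16 to Muc2 was 6.59 in Control, 4.01 in PZH, 1.91 in Model and 1.88 in Model + PZH mice, and that of Klk1 was 1.78, 1.01, 0.46 and 0.39. In Model mice the ratios of Klk1 (0.40 to 0.56) and Zg16 (1.61 to 3.33) lay below all Control mice (1.05 to 3.21 and 4.00 to 10.4). Medians were also lower in Model than in Control mice for Tff3 (1.32 against 3.9), Agr2 (0.94 against 2.64) and Fcgbp (0.18 against 0.41). The same held for Spdef (0.00541 against 0.00975) and Clca1 (0.31 against 0.35), and the groups overlapped in each of these. Retnlb (0.016 against 0.0043) and Clca4b (0.47 against 0.0078) had higher medians in Model mice. Muc2, the divisor, averaged 876.9 FPKM in Model and 482.3 FPKM in Control mice. The median ratio of Spink4 was 1.59, 1.02, 1.87 and 0.98, with overlap between all groups. These ratios were not tested, and a ratio shows unequal change and not which gene changed.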

How the data were processed

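Colon RNA of 20 mice was depleted of ribosomal RNA, and the study also names a poly(A) mRNA isolation kit for the step after that. Sequencing used 1 library per mouse. Per the study's methods, the authors aligned reads to mm10 with HISAT2 and assembled and quantified transcripts with StringTie; the deposited values are FPKM per transcript, without counts, and the submitters' processing notes also name limma. Here the FPKM of Ensembl transcripts were summed per gene with GENCODE M21, and 150 Ensembl transcripts not in that release and 22252 assembled transcripts (12.1 to 14.8% of summed FPKM) were left out. Columns of no sample numbered 0.

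Gene values were compared as log2(FPKM + 1) with limma 3.58.1 in R 4.3.3 (intensity trend, two-sided, no covariates, the 10 mice compared or all 20 for the interaction, at least 0.5 FPKM in at least 5 mice). Benjamini-Hochberg adjustment ran over all genes tested. A fold change on this scale understates that of low genes. The fit was tested on simulated data. A second rule used a fold change over 2 and an unadjusted P under 0.05.

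The 10 genes and all lists were chosen with earlier results of these data known. All 10 genes were named, and from each list up to 4 genes called in Model vs Control with at least 5 FPKM and the largest changes, with Muc2 and Atoh1 always. Bhlha15, Clca4a, Klk1b5, Il13, Il4 and Il22 were named outside this rule. Depth was estimated from whole steps in genes with 1 transcript. Between mice, 26.7 to 44.5% of low values lay within 0.02 of a step. Neither absolute nor relative depth was checked against counts. Genes were compared for shared stretches of 50 bases. Alternatives were other scalings, filters, pseudocounts and transcripts, array weights, 1 model of all mice, and leaving out mice. The sources used here name no batches, and no protein sequences were used here.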

Additional observations from a re-analysis of the deposited data

Results flagged for a closer look

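An assembled transcript without a gene name, which no comparison above uses, reached 806.5 FPKM in PZH mouse 53, while the highest Control mouse was at 0.42 FPKM. It was at 770.6 and 740.3 FPKM in PZH mice 14 and 46, at 253.0 FPKM in Model mouse 23, at 52.1 FPKM in Model + PZH mouse 35, and at or under 1.88 FPKM in the other 15 mice. In the same order, these 5 mice held Fcgbp at 47.9, 65.0, 14.3, 5.64 and 77.2 FPKM, and the first 4 of them were the lowest of all 20 mice in Fcgbp. It was found after the values were seen. The 281 assembled transcripts that reached 100 FPKM were ranked by how opposite they ran to Fcgbp over the 20 mice. Its r, the lowest of the 281, was −0.76 on the log2 scale, a description over mice of 4 groups. For the other genes the same ranking gave lowest r of −0.51 to −0.79, so an r of this size is not particular to Fcgbp. The deposited data do not give the position of this transcript, and whether it holds Fcgbp fragments was not tested.

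Of 40 sets of 5 values (10 genes in 4 groups), none held a mouse whose gap to the nearest other mouse exceeded 0.71 of the group's range in FPKM. Chance gives about 2 if the sets are independent. On the log2(FPKM + 1) scale, which weighs low values more, 3 sets held such a mouse. The 3 sets were Clca4b in Model + PZH mouse 13 (0.71 FPKM, next 206.2) and, in Model + PZH mouse 35, Fcgbp (77.2 FPKM, next 237.6) and Agr2 (536.6 FPKM, next 1008). Since 2 of them share a mouse, the sets are not independent and their number cannot be weighed against chance. Fcgbp in Model mouse 23 (5.64 FPKM) was under this limit on both scales.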

How the results depend on the processing

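Over 20 alternatives for Model vs Control, Clca4b was called in all 20 (log2 fold change 6.37 to 7.17), Spink4 in 19, Retnlb in 15, Klk1 in 5 and Zg16 in 1. Spink4 was lost on scaling to epithelial markers (1.10, adjusted P = 0.371), and Retnlb also in 1 model of all 20 mice (adjusted P = 0.0739). Klk1 was called with median-of-ratios scaling (adjusted P = 0.0434), in 1 model of all mice (0.045), with array weights (0.0373) and without Control mouse 50 (0.00612). In PZH vs Control the count of called genes went from 0 to 2 (Clca4b and Retnlb) on scaling to epithelial markers that include Krt8 (0.071 to 3071 FPKM), was 0 with 8 markers without Krt8, and ranged from 0 to 1 on leaving out 1 mouse. In Model + PZH vs Control the scaling with Krt8 kept a count of 2 but held Clca4b (adjusted P = 3.92e-16) in place of Spink4 (1.0). This count went from 2 to 3 in 1 model of all mice, to 0 with no filter, to 1 with the most abundant transcript, to 0 without Control mice 17 and 50, and ranged from 0 to 3 on leaving out 1 mouse. In Model + PZH vs PZH it went from 0 to 1 (Clca4b) on scaling to epithelial markers. In Model + PZH vs Model and in the interaction no alternative called any of the 10 genes.

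Signs turned for some values that had not passed the test. Their main log2 fold changes reached 0.33 (Spdef) in PZH vs Control and 0.41 (Clca1) in Model + PZH vs Model. In Model vs Control these were Tff3 and Agr2 (0.062 and 0.075 with 8 epithelial markers) and Spdef (−0.25 without Control mice 17 and 50). In PZH vs Control they were Zg16, Spdef and Klk1 (−0.27, −0.14 and −0.31 without Control mice 17 and 50), Klk1 (−0.052 without Control mouse 50, in a range of −0.052 to 0.369 over the mice left out) and Tff3 (0.13 with epithelial markers). In Model + PZH vs Model they were Zg16 (−0.22 with the most abundant transcript, −0.003 with 8 epithelial markers, −0.041 and −0.072 without Model + PZH mouse 2 or 13, in a range of −0.072 to 0.479), Clca1 (−0.024 without mouse 15, in a range to 0.907) and Spink4 (0.007 without mouse 13, in a range from −0.171). The cause was not tested.

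The planned scaling to 10 epithelial markers used 9, since Epcam was listed at 0 in 13 mice. The version with 8 markers and the fits without Control mice 17 and 50 were chosen after seeing the data. No paired analysis was possible because the mouse numbers do not repeat between groups.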

Other observations

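Epithelial genes outside the 10 showed values that switched between mice within a group. Epcam was listed at 0 in 13 mice, among them all Control mice, and at 232.6 to 864.7 FPKM in the other 7. Krt8 ranged from 0.10 to 3071 FPKM among the Control mice and from 0.071 to 2795 FPKM among the PZH mice, while Vil1 stayed between 156.9 and 273.9 FPKM in all 20. Among the 10 genes, Clca4b in Model + PZH mouse 13 (0.71 FPKM against 206.2 to 488.9 in its group) and Fcgbp in Model mouse 23 (5.64 FPKM against 67.6 to 272.5) had such values. For Clca4b, the assembled transcript that ran most opposite to it (r = −0.79 on the log2 scale) also differed between groups. It was at 412.6 to 538.0 FPKM in Control and at 132.8 to 225.1 FPKM in Model mice. In the Model + PZH group it was at 391.5 FPKM in mouse 13 and at 170.2 to 304.2 FPKM in the others. It stayed at 132.8 FPKM or more in all mice. Whether it holds Clca4b fragments was not tested.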
